A study of Mus musculus with 86 samples.

Results

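Immediate early genes are switched on within minutes of a stimulus, from promoters that are already loaded, and need no new protein to be made first. They include the AP-1 subunits of the Fos and Jun families, which pair with each other to bind DNA, the zinc finger factor Egr1, and proteins that end the response. Kinase cascades switch them on through promoter sites for serum response factor and for CREB. Their mRNAs are short-lived, and the enzymes and warming used to separate tissue into cells are known to induce them in many tissues.

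The genes considered here are 8 of a list of 10, the immediate early genes Fos, Fosb, Jun, Junb, Egr1, Ier2, Dusp1 and Zfp36, out of 12360 genes in the deposited expression table. The listed genes Jund and Atf3 were not analysed here. RNA had been sequenced from 86 single cells of wild-type mouse kidneys on a mixed background, at 12.5 days post coitum (metanephros, Theiler stage 20, males and females pooled). The kidneys had been pooled, taken apart with warm trypsin and loaded on a Fluidigm C1, an instrument that holds each cell in a chamber of its own. All cells shared this handling and 1 pool, so they are 1 sample, no p-value is given, and any SD is a spread between cells. No undissociated tissue is among the samples, so levels in the intact kidney and levels set by dissociation cannot be told apart.

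Cells were put in 3 classes by the RPKM (reads scaled to gene length and to all mapped reads of the cell) of a pair of marker genes. The 7 Mal2-high cells had Mal2, a membrane protein of epithelia, at 100 RPKM or more, the 46 Six2-detecting cells had Six2, a nephron progenitor factor, at 1 RPKM or more, and the remaining 33 cells had neither. The lowest Mal2 value among Mal2-high cells was 1219 RPKM and the highest among all other cells was 3.41. The lowest Six2 value among Six2-detecting cells was 1.50 RPKM and the highest among remaining cells was 0.527. Of the Mal2-high cells, 3 also detected Six2, and doublets were not called. A gene counted as detected at 1 RPKM or more throughout.

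Bud and stroma markers fitted these classes, and nephron progenitor markers did so in part. The 13 ureteric bud markers in the table summed to between 764 and 2133 RPKM in Mal2-high cells, up to 313 in Six2-detecting cells and up to 305 in remaining cells. All 7 Mal2-high cells detected Calb1, Cdh1 and Gata3, and 6 of 7 detected Ret, the receptor of the bud tip. Nephron progenitor markers detected per cell had medians of 5 of 11 in Mal2-high cells, 9 in Six2-detecting cells and 4 in remaining cells. Stroma markers detected per cell had medians of 3 of 12 in Mal2-high cells, 6 in Six2-detecting cells and 9 in remaining cells, so the remaining cells were mostly rich in stroma markers. Induced nephron markers detected per cell had medians of 3 of 6 in Mal2-high cells, 2 in Six2-detecting cells and 2 in remaining cells. They summed to at most 294 RPKM in Mal2-high cells, 530 in Six2-detecting cells and 1555 in remaining cells. Of the 8 endothelial and 7 leukocyte markers listed, 2 and 1 were in the table. Endothelial Cldn5 was detected in 3 remaining cells and in no cell of the other classes, and Emcn in 1 Mal2-high, 2 Six2-detecting and 7 remaining cells.

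Cells detected between 3458 and 7100 genes, with a median of 6164. Estimated from the step size of low values, which was mostly that of both reads of a pair, the median cell held 2045000 mapped read pairs, with a range of 316000 to 6226000. The class medians were 2111000 in Mal2-high, 2045000 in Six2-detecting and 1982000 in remaining cells. At that depth 1 RPKM stood for about 6.52 read pairs on Jun and 3.11 on Ier2. The estimate was built after the values were seen and may be wrong by a whole factor in single cells.

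Sequence features that the choice of genes did not use are given first, at the promoter, where these genes are switched on, and in the 3' UTR, where their mRNAs are marked for decay. Of the 8 genes, 6 matched a promoter in a RefSeq table of the GRCm38.p6 build, holding 250 bases before each gene's start, and 8 motifs were searched in these on both strands. Egr1 and Ier2 did not match, so their promoters were not searched for any motif. TGACG, the core of the site bound by CREB, was in the promoters of Fos, Fosb, Junb and Dusp1, 4 of 6, and in 17.8% of all 32851 promoters. The full palindrome TGACGTCA, which contains TGACG on both strands, was in Dusp1 alone of the 6 and in 1.55% of all promoters. The CArG box, bound by serum response factor, was in Zfp36 alone of the 6 and in 1.47% of all promoters. Its absence from the other windows says only that these letters are not in this stretch. The AP-1 site TGANTCA and the EGR site GCGTGGGCG were in 0 of the 6, and in 6.75% and 0.536% of all promoters. The ETS site CCGGAAG was in 1 of the 6 (6.91% of all promoters), the GC box GGGCGG in 5 (32.7%) and CCAAT in 2 (33.8%). Below are the 150 bases before the start of 4 genes that hold a CREB core or a CArG box, in gene direction, with TGACG (either strand) in capitals, or the CArG box in capitals for Zfp36. The genes were chosen for display after the search.
Fos, chr12:85473740-85473889, plus strand: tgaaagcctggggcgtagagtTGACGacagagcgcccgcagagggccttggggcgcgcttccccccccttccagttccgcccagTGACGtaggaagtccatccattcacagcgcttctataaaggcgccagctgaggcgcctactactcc
Fosb, chr7:19310046-19310195, minus strand: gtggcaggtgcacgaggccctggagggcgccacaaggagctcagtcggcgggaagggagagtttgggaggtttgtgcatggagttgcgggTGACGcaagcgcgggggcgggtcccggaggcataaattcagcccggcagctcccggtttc
Dusp1, chr17:26508473-26508622, minus strand: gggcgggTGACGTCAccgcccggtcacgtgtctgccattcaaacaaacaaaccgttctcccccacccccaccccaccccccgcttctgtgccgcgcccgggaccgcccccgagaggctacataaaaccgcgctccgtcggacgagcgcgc
Zfp36, chr7:28379229-28379378, minus strand: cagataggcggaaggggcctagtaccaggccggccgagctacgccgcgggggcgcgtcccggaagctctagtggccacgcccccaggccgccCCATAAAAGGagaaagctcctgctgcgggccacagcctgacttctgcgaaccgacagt

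In the 3' UTR, the decay signal is an AU-rich site, and the protein made from Zfp36, tristetraprolin, is the best known reader of the core UAUUUAU. In the longest annotated 3' UTR of each gene (GENCODE M21, GRCm38), this core was in 5 of 8 members (62.5%) and in 31.5% of 10536 genes of the table. Among genes with a 3' UTR no longer than the longest of a member, it was in 22.0%. Dusp1 and Zfp36 each held 3 copies, Fos 2, Fosb 1 and Jun 1, and Junb, Egr1 and Ier2 held 0. The highest counts were those of the members that damp the response, including the reader itself. Fos was close behind, and the share of all genes with 3 copies was not counted. Below is 1 window of 30 bases per gene, in DNA letters and gene direction, with TATTTAT in capitals.
Fos, chr12:85477103-85477132, plus strand: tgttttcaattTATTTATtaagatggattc
Fosb, chr7:19303325-19303354, minus strand: ccacccccagcTATTTATccctttcctggt
Jun, chr4:95049078-95049107, minus strand: ttgcttgtgcaTATTTATaatagcgttcgt
Dusp1, chr17:26506158-26506187, minus strand: gagctggtcctTATTTATttaacacccccc
Zfp36, chr7:28376965-28376994, minus strand: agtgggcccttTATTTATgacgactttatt

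Egr1 and Fos were by far the most abundant members. Over all 86 cells the mean level was 112 ± 150 RPKM for Egr1 and 105 ± 112 RPKM for Fos (SD over cells), which placed them above 94.4% and 94.1% of the genes in the table. Ier2, a nuclear protein of the early response, averaged 31.4 ± 39.0 RPKM. Dusp1, a phosphatase that switches off the p38 and JNK kinases, averaged 17.1 ± 26.3 RPKM, and Jun, the main partner of Fos, 12.8 ± 15.4 RPKM. Zfp36 averaged 6.43 ± 13.0, Fosb 5.79 ± 10.4 and Junb 1.99 ± 4.97 RPKM. The SD was at least as large as the mean for all 8 members, so a mean describes few of the cells. Of the 7 steps in this order, 3 did not hold cell by cell. Egr1 was above Fos in 42 cells and below it in 44, Dusp1 above Jun in 34 and below in 44, and Zfp36 above Fosb in 29 and below in 39. The other steps held in most cells. Fos was above Ier2 in 62 cells and below in 23, Ier2 above Dusp1 in 57 and below in 26, Jun above Zfp36 in 54 and below in 21, and Fosb above Junb in 44 and below in 25, with ties elsewhere.

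In the authors' mm9 coordinates, Fos (gene 14281) lies at chr12:86814851-86818219, Egr1 (13653) at chr18:35020861-35024610 and Ier2 (15936) at chr8:87185230-87186751. Jun (16476) lies at chr4:94715727-94718913, Dusp1 (19252) at chr17:26642536-26645417 and Zfp36 (22695) at chr7:29161803-29164247. Fosb (14282) lies at chr7:19888045-19895394 and Junb (16477) at chr8:87498383-87502617, each on the same chromosome as another member but apart from it. No other gene of the table overlaps a member.

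The AP-1 subunits differed from each other in how they were spread over cells. Fos was detected in 68 of 86 cells (79.1%, exact 95% interval 69.0 to 87.1%, which covers counting error only). It lay below 1 RPKM in 18 cells, between 1 and 10 in 6, between 10 and 50 in 13, and at 50 or more in 49. Jun, its dimer partner, was detected in about as many cells, 67, but at middling values. Jun lay between 1 and 10 RPKM in 30 cells and between 10 and 50 in 33, with 4 cells at 50 or more. Fosb, a second Fos protein, was detected in 44 cells and Junb, a weaker activator than Jun, in 25. For Junb, 9 cells held 74.0% of the RPKM summed over all cells, against 35.4% for Fos and 40.7% for Jun.

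Egr1 was detected in 74 of 86 cells and Ier2 in 77, the most of any member. Egr1 lay at 50 RPKM or more in 53 cells and below 1 in 12, while Ier2 was spread more evenly, with 22 cells between 1 and 10 RPKM, 35 between 10 and 50, and 20 above. Fos and Egr1 were missed in more cells than most genes of like level. The 1190 genes with a mean of 50 to 200 RPKM, a range chosen after the values were seen, were detected in a median of 83 cells. Of these genes, 6.89% were detected in no more cells than Fos and 16.1% in no more cells than Egr1.

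Of the genes that damp the response, Dusp1 was detected in 52 of 86 cells, more than Fosb and Junb, and listed at 0 in 27. Zfp36 was detected in 30 and listed at 0 in 49, so its message was found in a minority of cells although 18 cells held between 10 and 50 RPKM. The highest single values were 1096 RPKM for Egr1, 444 for Fos, 218 for Ier2 and 135 for Dusp1. Such high values were few for each gene, as the plot of values by class shows.

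**Figure D1:**
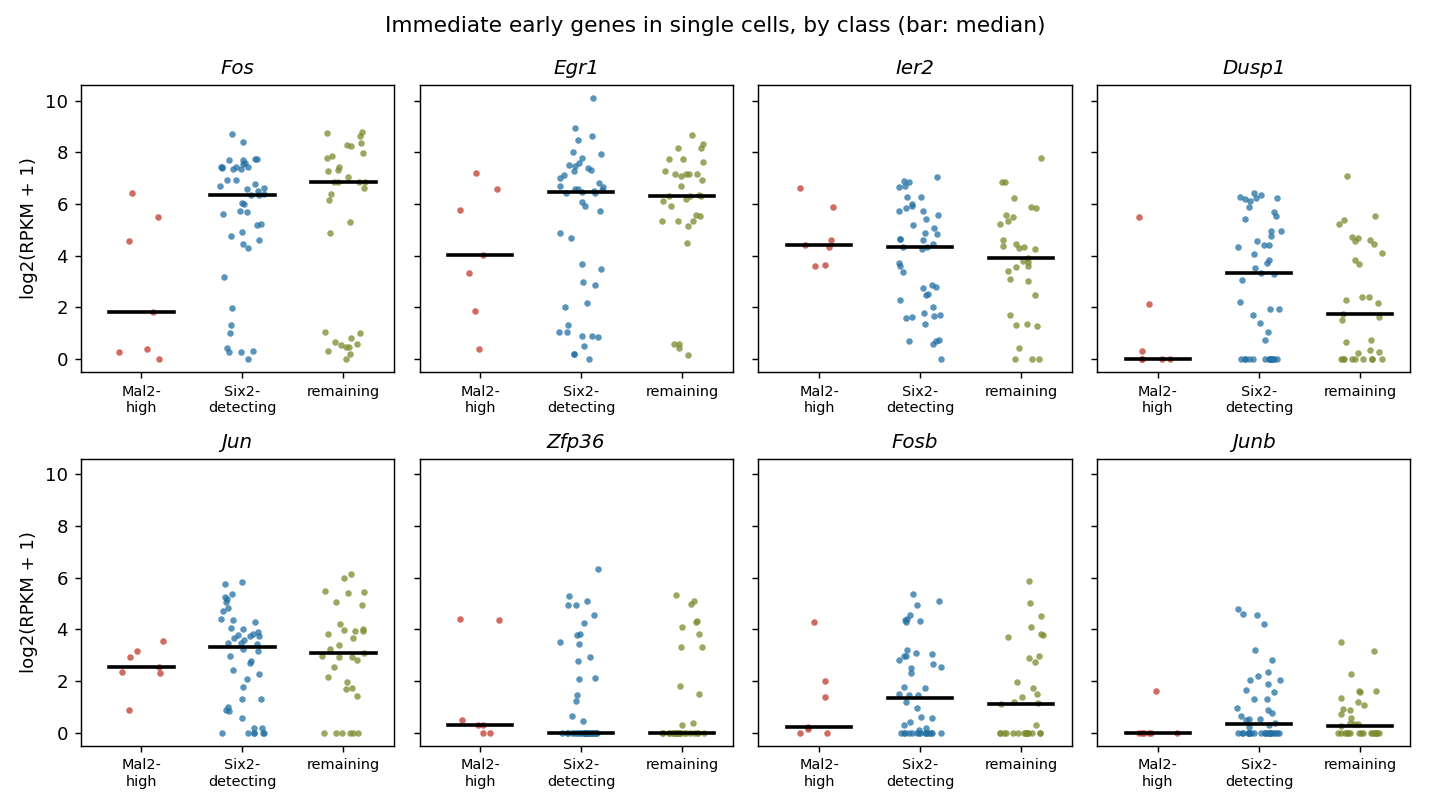
Level of each of the 8 immediate early genes in each cell (points, log2 of RPKM + 1, vertical axis) in Mal2-high (7), Six2-detecting (46) and remaining (33) cells; the black bar is the class median. Fos lies below 1 RPKM in 3 Mal2-high, 5 Six2-detecting and 10 remaining cells, and the classes overlap for all 8 genes.

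Mal2-high cells held less Fos, Egr1 and Jun on average than both other classes. The 7 Mal2-high cells (cells 3, 18, 20, 47, 53, 57 and 74) had 0.310, 0, 2.53, 22.4, 83.9, 44.0 and 0.216 RPKM of Fos, against 0, 81.1 and 415 (lowest, median and highest) in Six2-detecting cells and 0, 113 and 444 in remaining cells. Cell 53 alone passed the median of Six2-detecting cells, cells 3, 18 and 74 lay below 1 RPKM, and the classes overlapped. Mean Fos was 21.9 ± 32.0 RPKM in Mal2-high cells, 100.1 ± 93.0 in Six2-detecting cells and 130 ± 137 in remaining cells. As log2 ratios of mean RPKM plus 1, Mal2-high cells were at -2.14 against Six2-detecting cells and at -2.51 against remaining cells. Without cell 53 these were -3.01 and -3.38. Fos was detected in 4 of 7 Mal2-high cells (interval 18.4 to 90.1%), 41 of 46 Six2-detecting cells (76.4 to 96.4%) and 23 of 33 remaining cells (51.3 to 84.4%).

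Egr1 in the same 7 Mal2-high cells was 15.4, 2.60, 146, 8.94, 54.1, 95.5 and 0.294 RPKM, against 0, 86.6 and 1096 (lowest, median and highest) in Six2-detecting cells and 0.103, 79.0 and 410 in remaining cells. Unlike Fos, Egr1 was detected in a like share of each class, 6 of 7 Mal2-high, 39 of 46 Six2-detecting and 29 of 33 remaining cells. Its log2 ratio was -1.37 for Mal2-high over Six2-detecting cells and -1.30 over remaining cells. Cell 20 carried much of the Mal2-high mean, and without it these ratios were -1.999 and -1.93.

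Jun lay between 0.851 and 10.7 RPKM in Mal2-high cells, with a median of 4.81, against medians of 9.11 in Six2-detecting and 7.41 in remaining cells. It was found in 6 of 7 Mal2-high cells, 34 of 46 Six2-detecting cells and 27 of 33 remaining cells, so the lower mean came with a like share of cells. The log2 ratios were -1.02 for Mal2-high over Six2-detecting cells and -1.27 over remaining cells. With the mean of log2 values in place of the log2 of means they were -0.28 and -0.46, inside 2-fold.

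Mean Ier2 in Mal2-high cells was close to that of the other classes. All 7 detected it, with 11.1, 20.0 and 98.3 RPKM as lowest, median and highest, against 0, 19.3 and 132 in Six2-detecting cells and 0, 13.9 and 218 in remaining cells. The log2 ratio was 0.13 for Mal2-high over Six2-detecting cells and 0.16 over remaining cells. Without cell 20, the highest of the 7, the ratios were -0.39 and -0.36, and without cell 57 they were -0.03 and -0.01, so their sign rests on either cell. With the mean of log2 values they were 0.84 and 0.97.

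Dusp1 was found in 2 of 7 Mal2-high cells, at 3.36 RPKM in cell 18 and 44.6 in cell 20. It was detected in 31 of 46 Six2-detecting cells, with a median of 8.96 RPKM, and in 19 of 33 remaining cells, with a median of 2.37. Its log2 ratio was -1.51 for Mal2-high over Six2-detecting cells and -0.86 over remaining cells. Cell 20 decided the size: without it the ratios were -3.81 and -3.16. With the 3 Mal2-high cells that detect Six2 left out they were -0.88 and -0.23.

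Junb was listed at 0 in 6 of 7 Mal2-high cells and stood at 2.03 RPKM in cell 57. It was detected in 15 of 46 Six2-detecting cells, up to 26.4 RPKM, and in 9 of 33 remaining cells, up to 10.3 RPKM. Its log2 ratio was -1.59 for Mal2-high over Six2-detecting cells and -0.70 over remaining cells. At this low level the first ratio depended on the scale: it was -2.94 with a pseudocount of 0.1, -0.32 with 10, and -0.78 with the mean of log2 values. Fosb had 18.6 RPKM in cell 53 and at most 3.02 in the other Mal2-high cells. Its log2 ratios of -0.69 against Six2-detecting cells and -0.68 against remaining cells became -1.96 and -1.94 without cell 53. Zfp36 stood near 20 RPKM in cells 53 and 57, at 19.5 and 19.9, and below 1 in the other Mal2-high cells. Its log2 ratios were -0.24 against Six2-detecting cells and -0.02 against remaining cells, and -0.86 and -0.64 without cell 57.

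In all, 5 of 8 members were at least 2-fold lower in Mal2-high than in Six2-detecting cells (Fos, Junb, Dusp1, Egr1 and Jun), where 20.9% of all genes were, and 0 were 2-fold higher, where 10.3% were. Of these 5, Fos and Egr1 stayed past 2-fold with a pseudocount of 10 RPKM, and Fos (-2.78) and Dusp1 (-1.79) with the mean of log2 values, where Egr1 was at -0.95. Against remaining cells 3 of 8 were 2-fold lower (Fos, Egr1 and Jun), where 22.0% of all genes were, and 0 were higher, where 12.3% were. The median log2 ratio over the members was -1.19 against Six2-detecting cells, where that of all genes was -0.19, and -0.78 against remaining cells, where that of all genes was -0.14. These comparisons share the 7 Mal2-high cells. Most genes of the table were somewhat lower in Mal2-high cells, with 59.2% below 0 against Six2-detecting and 56.5% below 0 against remaining cells. The same cells differed in bud, progenitor and stroma markers by the values given above, and the part of these in the lower values was not tested.

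By the log2 ratio of mean RPKM plus 1, Six2-detecting and remaining cells lay within 2-fold of each other for all 8 members. No member was 2-fold higher in Six2-detecting cells, where 7.40% of all genes were, and none was 2-fold lower, where 7.65% were. Junb came nearest, with a mean of 2.89 ± 6.41 RPKM in Six2-detecting cells and 1.09 ± 2.27 in remaining cells, a log2 ratio of 0.90, which was 1.33 with a pseudocount of 0.1. Dusp1 followed at 0.65, with means of 21.4 ± 27.5 in Six2-detecting cells and 13.3 ± 25.6 in remaining cells. For Fos and Egr1 the sign depended on how cells were averaged. Fos was at -0.37 with the log2 of means and at 0.44 with the mean of log2 values, and Egr1 was at 0.07 and -0.79. Fos lay below 1 RPKM in 5 of 46 Six2-detecting cells and in 10 of 33 remaining cells, while Egr1 lay between 1 and 10 RPKM in 7 Six2-detecting cells and in 0 remaining cells. The other members, Fosb (0.02), Ier2 (0.02), Zfp36 (0.22) and Jun (-0.25), lay close to 0.

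Every cell detected at least 1 member. The median cell detected 5 of the 8, and 4 cells detected all of them. The median was 5 in Mal2-high, 5.5 in Six2-detecting and 5 in remaining cells. At 10 RPKM in place of 1 the median over all cells was 3. The RPKM of the 8 members summed to 48.2 in the median Mal2-high cell, 230 in the median Six2-detecting cell and 278 in the median remaining cell. Fos and Egr1 together made up a median of 50.2% of that sum in Mal2-high cells, 72.4% in Six2-detecting cells and 76.3% in remaining cells. The sum ran from 5.23 to 1401 RPKM over all cells, so some cells of every class held little of this message.

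**Figure D2:**
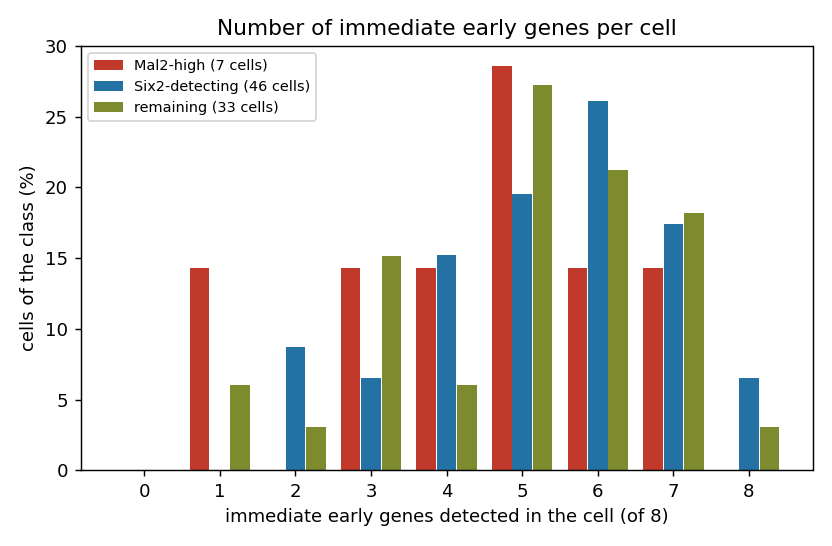
Number of the 8 immediate early genes detected (RPKM of at least 1) in a cell on the horizontal axis, and the percent of the cells of each class on the vertical axis. Most cells detect between 4 and 7 of the genes in all 3 classes, and no cell detects 0.

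Across cells the members varied together weakly, with 1 exception. The Spearman correlation over 86 cells was above 0 for 27 of 28 pairs, with a median of 0.18 and a range of -0.05 to 0.60. The median over all pairs of the 7979 genes detected in at least 30% of cells was 0.02, with 58.3% of pairs above 0. At 0.3 or more lay 3 of the 28 pairs, where 0.844% of all pairs did, and these were Fos with Egr1 (0.60), Fos with Ier2 (0.36) and Egr1 with Ier2 (0.35). Fos with Fosb came next, just under 0.3. All cells share a chip and a library preparation, RPKM values within a cell share a total, and zeros are common in the low members.

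Within classes the median over the 28 pairs was 0.41 in Mal2-high cells, 0.20 in Six2-detecting cells and 0.13 in remaining cells. At 0.3 or more lay 20 of 28 pairs in Mal2-high cells, where 25.1% of all gene pairs did over so few cells. In Six2-detecting cells 6 of 28 pairs did, where 3.17% of all pairs did, and in remaining cells 5 of 28, where 7.19% did. Each background covers genes detected in at least 30% of the cells of its class, but all members were kept. Below that limit were Junb (14.3%), Dusp1 (28.6%) and Zfp36 (28.6%) in Mal2-high cells and Junb (27.3%) in remaining cells, so the sets differ. Among Mal2-high cells Junb was above 0 in cell 57 alone. Its pairs there with Fos, Jun, Egr1 and Ier2 each equalled the class median of 0.41, and its pair with Dusp1 was at -0.34. Over all cells, the partial correlation given the number of detected genes left the median at 0.18.

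**Figure D3:**
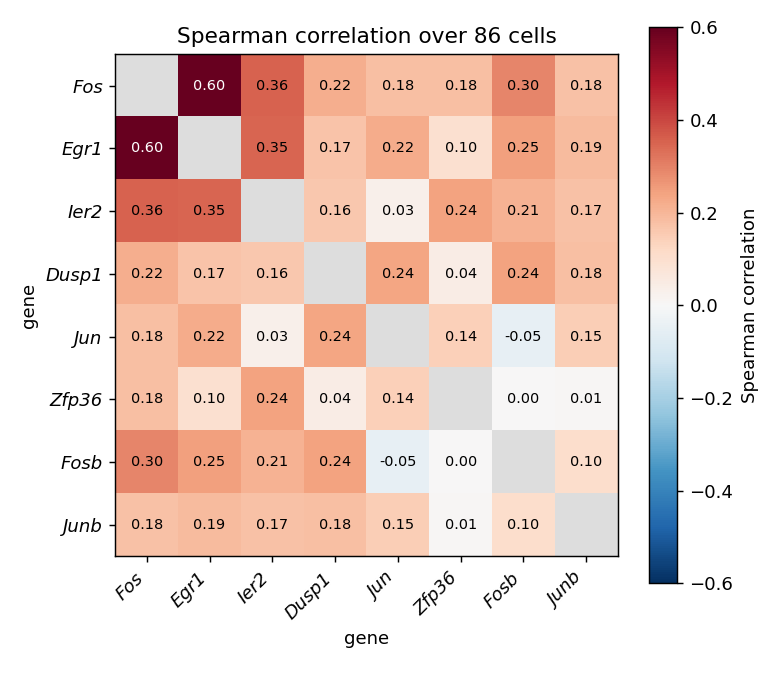
Spearman correlation over 86 cells between each pair of the 8 immediate early genes, as colour and number. The Fos and Egr1 square stands apart at 0.60, and the pairs of Zfp36 and Junb lie mostly near or below 0.2.

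Fos and Egr1 were the pair that moved together. Of 7979 genes, Egr1 was the gene most like Fos across cells and Fos the gene most like Egr1, and this lookup was made after their values were seen. The next gene was Etfb for Fos, a mitochondrial electron carrier, at 0.46, and Fbxo46 for Egr1, at 0.40. Only 2291 of 31828231 gene pairs had a correlation at or above 0.60, the value of this pair. It was 0.64 within Mal2-high cells, 0.64 within Six2-detecting cells and 0.57 within remaining cells, and 0.60 given the number of detected genes.

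Both genes were detected in 64 cells, Fos alone in 4, Egr1 alone in 10 and neither in 8. All 4 cells with Fos alone were Six2-detecting, and the 10 with Egr1 alone were 2 Mal2-high, 2 Six2-detecting and 6 remaining cells. The 18 cells with Fos below 1 RPKM had a median of 3.02 RPKM of Egr1, with a range of 0 to 142. The other 68 cells had a median of 95.5, with a range of 0.133 to 1096. Of these 18 cells, 10 detected Egr1 and 8 did not. Remaining cells 45, 50, 13, 32 and 5 held 142, 77.8, 71.6, 59.5 and 39.5 RPKM of Egr1 with Fos below 1.

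**Figure D4:**
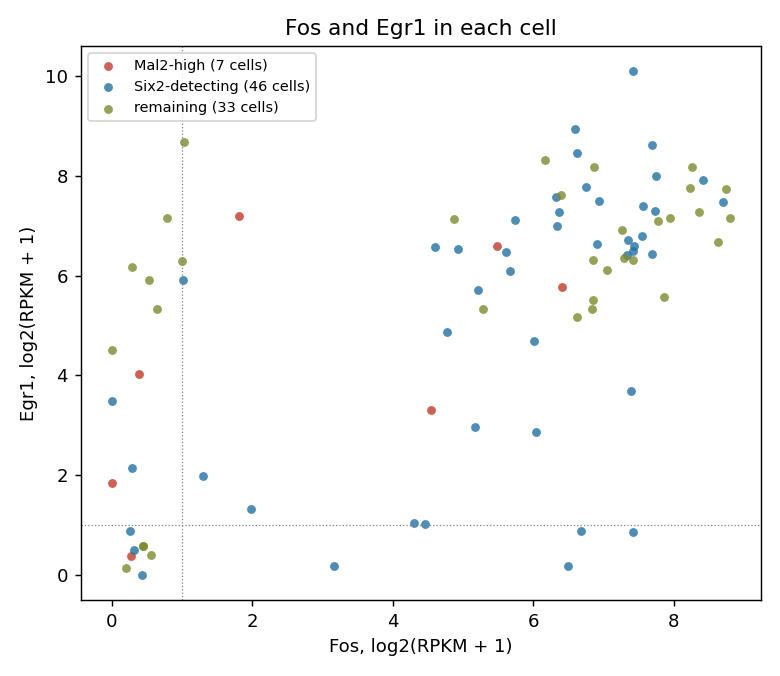
Fos (horizontal axis) and Egr1 (vertical axis) in each of 86 cells, as log2 of RPKM + 1, coloured by class; dotted lines mark the detection limit of 1 RPKM. Most cells sit high on both genes, 8 cells are below the limit on both, and 10 cells, 6 of them of the remaining class, hold Egr1 without Fos.

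The other members followed the rest less closely. The correlation of each member with the mean log2(RPKM + 1) of the other 7 was 0.57 for Fos and 0.51 for Egr1, 0.40 for Ier2, and 0.33 for Fosb. It was 0.32 for Dusp1, 0.25 for Jun, 0.24 for Junb and 0.22 for Zfp36. Jun was thus less tied to the others than its partner Fos, and Jun with Fosb was the only pair below 0, at -0.05. Jun with Ier2 was at 0.27 in Six2-detecting cells and at -0.33 in remaining cells.

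The number of genes detected in a cell was little related to these genes. The mean log2(RPKM + 1) over the 8 members, called the member score, had a Spearman correlation of 0.13 with the number of detected genes, where the median gene of the table had 0.14. No member reached 0.3, where 9.93% of genes did. Fos (-0.01) and Egr1 (-0.06) were at about 0, and Junb (0.19), Zfp36 (0.17) and Dusp1 (0.12) were highest. The count of members detected had a correlation of 0.32 with the count of genes detected, and members are among the genes counted. With the estimated read pairs per cell the score had a correlation of 0.09 and the count of members 0.02. The score's correlation with read pairs differed in sign between classes, at 0.32 in Mal2-high, 0.27 in Six2-detecting and -0.25 in remaining cells, where Fos was at -0.37 and Egr1 at -0.32.

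Within classes the score had correlations with genes detected of -0.14 over the 7 Mal2-high cells, 0.19 in Six2-detecting cells and 0.20 in remaining cells. The highest value of a single member in the larger classes was that of Zfp36 in remaining cells, at 0.38. Of 5 cells with few detected genes, more than 3 median absolute deviations below the median, 1 was Six2-detecting and 4 were remaining cells. Jun was detected in all 5, at 7.41 to 63.1 RPKM, and Egr1 in 3, while Zfp36 and Junb were detected in 0. One of these cells held the highest Egr1 value of the series, 1096 RPKM, and another the highest Dusp1 value, 135 RPKM. Cells of few genes were thus found at both ends of the score.

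**Figure D5:**
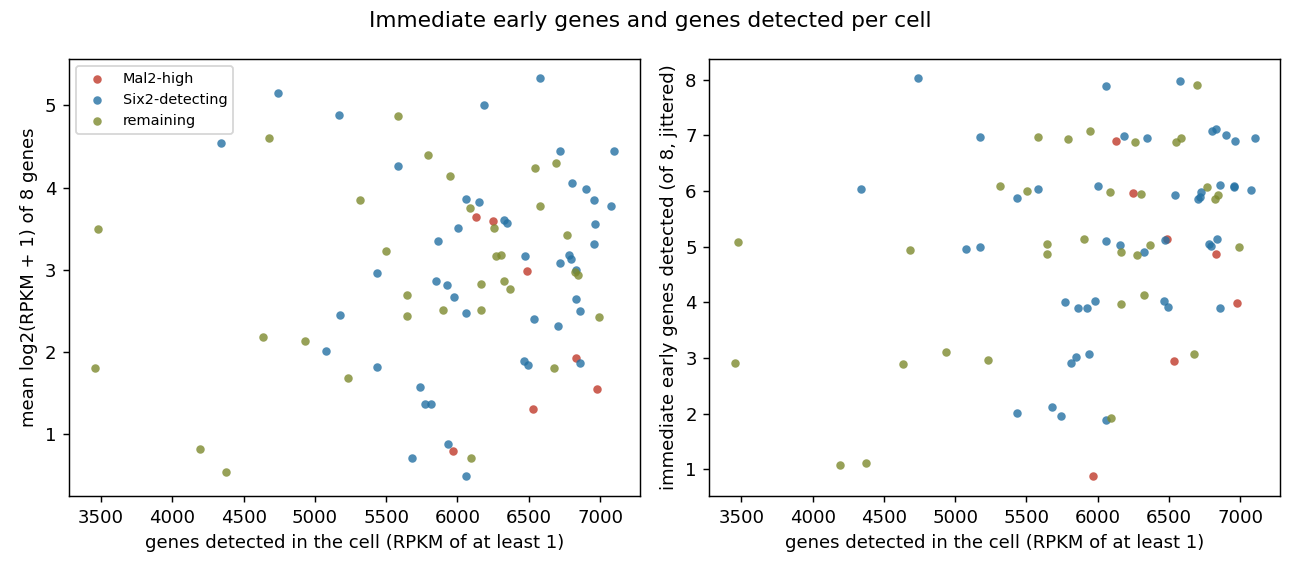
Number of genes detected per cell (horizontal axes) against the member score (left, mean log2 of RPKM + 1 over 8 genes) and against the number of the 8 genes detected (right, jittered vertically), coloured by class. The score spreads over most of its range at every number of genes, and the cells that detect 1 member are 2 remaining cells of few genes and 1 Mal2-high cell with 5966 genes.

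Other genes that varied with the score were few. Among 7972 genes outside the members, 54 (0.677%) had a correlation of 0.3 or more with it, and the median was 0.02. That share is near the 0.844% of all gene pairs that reached 0.3 over the same cells. The genes below are therefore named by rank alone. Cdh11, a cadherin of mesenchymal cells, was highest at 0.46, with 0.47 within Six2-detecting and 0.44 within remaining cells. Fam13b (0.43), Nkiras1 (0.41), an inhibitor of NF-kappaB signalling, Id3 (0.38), an inhibitor of helix-loop-helix factors, and Cfhr2 (0.38) followed. Nr2f1 (0.38), an orphan nuclear receptor, Ip6k1 (0.37), Ppil4 (0.36), Snai1 (0.36), a repressor of epithelial cadherin, and Snx32 (0.36) completed the 10 highest. Within remaining cells Nkiras1 (0.22), Snx32 (0.18) and Id3 (0.15) lay under 0.3, and within Six2-detecting cells Snai1 (0.26) did. The rest of the 10 stood at 0.3 or more in both classes. The 10 were picked over all cells, these classes included, so the values within classes are not a separate check. The 5 lowest were Crk (-0.33), 1500003O03Rik (-0.33), Isoc1 (-0.32), the glycolytic enzyme Tpi1 (-0.32) and Kat2a (-0.31). With Pearson correlations 5 of the 10 highest were named again, so the list is loosely held.

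Other immediate early genes followed the score only slightly. Of 43 listed, 34 were in the table and 17 were detected in at least 30% of cells. Their median correlation with the score was 0.10, 13 of 17 were above 0, and 1 of the 17 reached 0.3. That gene was Cyr61, a secreted matrix protein and target of serum response factor, at 0.33. Btg2 (0.22), Plk2 (0.17) and Sik1 (0.16) were next. Cyr61 was detected in 4 of 7 Mal2-high cells, 24 of 46 Six2-detecting cells and 23 of 33 remaining cells, with means of 18.9 RPKM in Mal2-high, 30.2 in Six2-detecting and 46.6 in remaining cells. Among the sparser listed genes, Egr3 and Egr2, the relatives of Egr1, were detected in 11 and 6 cells and also passed 0.3, at 0.36 and 0.31, values that rest on those few cells.

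The AP-1 family beyond the members was represented by 4 widely detected genes of 12 listed, with a median of 0.05 and none at 0.3. They were Atf4 (0.12), Atf7 (0.06), Atf2 (0.04) and Mafg (-0.22). Paralogs of the feedback members had a median of 0.15 over 4 genes, with Dusp6 at 0.26, Zfp36l1 at 0.22, Zfp36l2 at 0.09 and Dusp7 at 0.06. Zfp36l1, an AU-site binder like Zfp36, was found in 85 cells at a mean of 73.2 RPKM, where Zfp36 was found in 30 at 6.43. Dusp6, a phosphatase of MAP kinases, differed from Dusp1 in Mal2-high cells, where Dusp1 had its lowest mean and Dusp6 its highest: mean Dusp6 was 202 RPKM in Mal2-high cells, 62.9 in Six2-detecting and 46.2 in remaining cells.

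Kinases and factors upstream of these genes had a median of 0.01 over 14 genes, among them Mapk14 (0.19), Creb1 (0.10) and Mapk8 (0.09). Feedback genes of growth factor signalling had a median of 0.10 over 8, led by Dusp6, Spred2 (0.14), Spred1 (0.13) and Spry1 (0.10). Etv5 and Etv4, targets of FGF signalling, were at -0.15 and -0.20. Of 14 heat shock genes listed, 12 were in the table and 10 were detected in at least 30% of cells. These 10 had a median of -0.00, with Hsf1 (0.11), Hspd1 (0.06), Dnaja1 (0.05) and Hspa8 (0.03) highest. Hspa8, a chaperone present in unstressed cells too, was detected in all 86 cells at a mean of 2047 RPKM. Hsp90ab1, Hspd1 and Hspe1 were also detected in all 86 cells. Lowest of the 10 were Hsph1 (-0.09), detected in 72 cells, and Dnajb1 (-0.06), detected in 56. Whether the median over these genes follows heat stress was not tested. Housekeeping genes had a median of 0.07 over 8, with B2m at 0.16, Ywhaz at 0.09, Eef1a1 at 0.08 and Actb at 0.08. Of the 8, 5 were above 0, and Ppia (-0.25), Gapdh (-0.24) and Hprt (-0.19) were lowest.

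Among cell type markers, 9 stroma markers had a median correlation with the score of 0.17, 10 nephron progenitor markers of 0.05, 3 induced nephron markers of -0.15, and the 1 widely detected ureteric bud marker was at 0.11. None of them reached 0.3.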

How the data were processed

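The authors deposited RPKM values per gene and cell, and every listed gene passes an RPKM of 3 in 3 cells or more, a filter also named per the file headers. TopHat 1.4.1, DESeq and the build mm9 appear, without a role, among tools and builds per the submitters' processing notes. A second deposited table, of genes the authors chose in another comparison, was not used. Values were kept on the linear scale. A gene was detected at 1 RPKM or more. Classes were compared by the log2 ratio of mean RPKM plus a pseudocount of 1, over all 12360 genes, and called at 2-fold. Spearman correlations across cells were set beside those of all genes detected in at least 30% of cells, and all 8 members were kept, Junb at 29.1% included. Intervals on shares of cells are exact (Clopper-Pearson) at 95% and cover counting error only.

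Read pairs per cell were estimated from 122 of 211 intronless genes, kept because most of their low values were whole multiples of a fitted step. In these kept genes 91.3% of low values were whole within 0.06 steps. Genes and steps were picked by this same measure, so the share is not a check of the estimate. Several versions of this estimate were tried before the one used. The kits do not keep strand, so antisense reads cannot be told apart. Python 3.11.15 with numpy 2.4.6, pandas 2.3.3, scipy 1.17.1 and matplotlib 3.10.9 was used, and the calculations were tested on simulated data.

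The members, the lists and the classes were chosen with earlier results of these data known. Genes outside the members were named by rank of their correlation with the member score, 10 highest and 5 lowest, and up to 4 of each list, of which 1 gene is not reported here. Genes singled out beyond that rule, such as Egr2, Egr3, Etv4, Etv5, Etfb and Fbxo46, were chosen after their values were seen. Alternatives varied the pseudocount, averaging, limits, cells kept and the kind of correlation.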

Additional observations from a re-analysis of the deposited data

Results flagged for a closer look

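Among the 7 Mal2-high cells, a pair of values stood apart from the other 6 by more than Dixon's 95% limit on the log2 scale. For normally spread values, chance gives about 1 in 20 groups such a value, and 8 members and their score were looked at. With Dusp1 listed at 0 in 4 of the 7 cells and Junb in 6, that rate does not hold for either. Junb was 2.03 RPKM in cell 57 and listed at 0 in the other 6 cells, so any value above 0 there would have passed the limit. Dusp1 was 44.6 RPKM in cell 20, where the next highest Mal2-high cell had 3.36 RPKM. Cell 20 also held the highest Egr1 (146 RPKM) and Ier2 (98.3 RPKM) of the class, with Fos at 2.53 RPKM.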

How the results depend on the processing

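The direction of every member that was past 2-fold held under each alternative tried, and of 248 member ratios recomputed 219 moved by less than 1.5-fold, 29 moved more and 0 called ratios changed sign. The count of members 2-fold lower in Mal2-high than in Six2-detecting cells was 2 with a pseudocount of 10 RPKM and 2 with the mean of log2 values, in place of 5. The count 2-fold higher in Six2-detecting than in remaining cells was 1 with a pseudocount of 0.1 and 1 with Six2 detected at 10 RPKM, in place of 0. The median number of members detected was 3 at 10 RPKM, in place of 5. Within the 7 Mal2-high cells the median pair correlation was 0.41 and the correlation of the score with genes detected was -0.14. That median was also the value of Junb with Fos, Jun, Egr1 and Ier2, and Junb was above 0 in cell 57 alone of the class. With Pearson correlations 5 of the 10 genes most like the score were named again. The correlation of Fos with Egr1 ranged over its alternatives, chosen after seeing the data, between 0.57 and 0.64. The cause of these shifts was not tested. No paired analysis was possible because the cells carry only a number each and no result comes from a test. The 7 Mal2-high cells and a detection limit of a few read pairs limit what can be said of the low members, Junb, Fosb and Zfp36, and a gene listed at 0 may be missed message.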
